A study of Mus musculus with 24 samples.

Results

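The 10 genes described here encode regulators and enzymes with which the liver makes fatty acids and builds them into triglyceride: Srebf1, Mlxipl, Thrsp, Acly, Me1, Acaca, Acacb, Fasn, Scd1 and Gpam. They were chosen by name, and each was read from its brightest probe set by the mean of all 24 arrays, which gave 10 of the 18820 gene symbols measured. Liver RNA of male C57/BL6 mice had been hybridised to 24 arrays, 3 for each of 8 groups. Ligation of the common bile duct (BDL) blocks the outflow of bile and injures the liver, and the study followed an early injury at 48 h (mice aged 8 weeks) and a late injury at 28 d (mice aged 12 weeks). JNK1-/- mice, which lack the kinase gene Jnk1 (symbol Mapk8) in every cell, were ligated for 28 d or 48 h. JNK1Δhepa mice, which carry the floxed JNK1f/f alleles together with a Cre recombinase transgene driven by the albumin promoter and so lose Jnk1 in hepatocytes, were ligated for the same times. JNK1f/f controls were either ligated or sham operated, with the abdomen opened and closed, for the same times. Neither mutant had a sham group, so each mutant was compared with the control after ligation only. JNK1-/- mice were bought and the JNK1f/f line was donated, and neither littermate status, feeding state at death nor pooling of RNA is given in the sources used here. Each group of 9 to 10 mice is represented by 3 arrays, and because the labels do not tie arrays to separate mice, p-values measure only the spread between these arrays.

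In hepatocytes, citrate exported from mitochondria is cleaved to acetyl-CoA, carboxylated to malonyl-CoA and polymerised to palmitate, which is then desaturated and esterified to glycerol. The pathway is controlled largely at the level of transcription: SREBP-1c, encoded by Srebf1, carries the insulin signal, and ChREBP, encoded by Mlxipl, carries the carbohydrate signal. Cholestasis, the retention of bile, is known for wide changes in hepatic lipid handling, and JNK1 is known as a kinase that links stress to insulin signalling in liver and fat.

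Values are log2 intensities, so that a difference of 1 is a 2-fold change. Differences were estimated with limma in 1 model over all 24 arrays, and a gene counted as called where its p, adjusted over all 18820 symbols, was under 0.05. On this scale the members were bright. Scd1 averaged 12.86 over all arrays, at the 99.9th percentile of the symbols measured, and the dimmest member, Acacb, averaged 8.04, at the 75.4th percentile.

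Mapk8 was examined on each array before the comparisons. It read 6.11, 5.18 and 5.61 in JNK1-/- livers at 28 d and 5.33, 6.17 and 6.09 in JNK1-/- livers at 48 h, below every other array. JNK1Δhepa livers read 7.67, 6.90 and 6.97 at 28 d and 6.77, 6.81 and 6.76 at 48 h. Ligated control livers read 7.67, 7.41 and 7.44 at 28 d and 7.47, 7.49 and 7.37 at 48 h, and sham control livers 7.52, 7.52 and 7.54 at 28 d and 6.93, 6.67 and 6.86 at 48 h. The array labelled JNK1Δhepa 28 d replicate 1 thus stood at the control level, and the arrays labelled control sham 48 h stood at the level of JNK1Δhepa liver. Results of ligation at 48 h are therefore also given against the sham arrays of 28 d, and JNK1Δhepa calls at 28 d without that array. Whether the Mapk8 probes lie within the deleted exons is not known here.

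Hepatocyte markers were bright on all 24 arrays, with Alb between 13.24 and 13.44 and Hnf4a between 11.68 and 12.29. The defining adipocyte markers Adipoq (3.48 to 4.05), Lep (3.23 to 4.06), Retn (4.09 to 4.95) and Plin1 (4.21 to 4.86) were low on all arrays. In whole liver, fewer hepatocytes and less RNA per hepatocyte cannot be told apart.

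Promoter sequences are shown for Fasn and for the members that varied most closely with it within groups (Acaca, Acly, Thrsp and Gpam, apart from Scd1), and for Mlxipl, the member with the smallest spread within groups. They are the 150 bases before an annotated start site, from RefSeq on build GRCm38.p6, 5′ to 3′ on the gene's strand, with motif matches in capitals. RefSeq windows were matched for 9 of the 10 members, 14 windows in all, and Scd1 had no window.
Fasn, chr11:120824548-120824697, minus strand: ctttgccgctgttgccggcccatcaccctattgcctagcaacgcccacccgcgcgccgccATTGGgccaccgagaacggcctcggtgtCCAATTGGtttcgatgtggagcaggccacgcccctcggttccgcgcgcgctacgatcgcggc
Acaca, internal start, chr11:84195288-84195437, plus strand: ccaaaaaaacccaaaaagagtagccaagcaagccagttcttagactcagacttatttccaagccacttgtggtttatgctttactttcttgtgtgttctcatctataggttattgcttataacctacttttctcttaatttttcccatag
Acly, chr11:100528001-100528150, minus strand: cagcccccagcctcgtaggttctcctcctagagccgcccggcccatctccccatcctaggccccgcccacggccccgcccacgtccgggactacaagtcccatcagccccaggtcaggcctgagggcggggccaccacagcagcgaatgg
Thrsp, chr7:97417551-97417700, minus strand: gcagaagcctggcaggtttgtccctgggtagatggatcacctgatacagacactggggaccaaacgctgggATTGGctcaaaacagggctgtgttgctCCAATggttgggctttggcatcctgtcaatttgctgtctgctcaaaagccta
Gpam, chr19:55127239-55127388, minus strand: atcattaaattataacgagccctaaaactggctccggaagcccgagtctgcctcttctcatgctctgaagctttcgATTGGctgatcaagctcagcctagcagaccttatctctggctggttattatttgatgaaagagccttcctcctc
Mlxipl, chr5:135089740-135089889, plus strand: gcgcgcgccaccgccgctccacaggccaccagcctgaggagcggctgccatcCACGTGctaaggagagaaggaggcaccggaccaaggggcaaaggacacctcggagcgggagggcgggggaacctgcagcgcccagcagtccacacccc
Mlxipl, internal start, chr5:135106741-135106890, plus strand: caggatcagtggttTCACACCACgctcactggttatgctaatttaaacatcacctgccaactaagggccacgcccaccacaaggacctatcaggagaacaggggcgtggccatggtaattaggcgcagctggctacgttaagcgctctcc
In Fasn, Thrsp and Gpam, capitals mark the NF-Y box CCAAT on either strand. The Acaca and Acly stretches hold no match, and the only match in the full Acly window lies after the start. In Mlxipl, capitals mark the E-box CACGTG in the upstream window and the sterol regulatory element TCACNCCAC in the internal window. In Fasn the run of 8 capitals holds 2 overlapping NF-Y boxes, 1 on each strand. Over windows from 250 bases before to 50 after the start, read on both strands, an NF-Y box was found for 8 of 9 members, against 41.1% of 27025 genes. Counted by window, as for the motifs that follow, it was found in 9 of 14 member windows, against 37.4% of all windows. The E-box was found in 1 of 14 member windows (7.15% of all 32851 windows), the sterol regulatory element in 1 of 14 (1.24%), and the carbohydrate response element, a spaced pair of E-boxes that ChREBP is known to bind, in 0 of 14 (0.557%). A match describes these letters in these windows and is not evidence that a factor was bound.

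The first comparison asked what ligation did to these genes in control liver. At 28 d, 4 of the 10 genes had fallen relative to sham, namely the transcription factor gene Mlxipl, the acetyl-CoA carboxylase gene Acacb, the malic enzyme gene Me1 and Thrsp, and none had risen. All symbols gave 23.2% called in this comparison and 11.5% called lower. Among the 9410 symbols at or above the median brightness, where all members lay, 37.9% were called in either direction. Counted in either direction, 4 of 10 was thus near the share of bright symbols. The share of bright symbols called lower, the direction of all 4, is not given here. The median difference of the 10 genes was -0.58, against -0.028 for all symbols. At 48 h only Mlxipl was called, lower, against 9.43% of all symbols called in either direction and 3.83% called lower. The largest difference at 48 h was that of Thrsp (-1.31, SE 0.61, adjusted p = 0.198), which was not called.

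Mlxipl encodes ChREBP, which turns on glycolytic and lipogenic genes when carbohydrate is plentiful. At 28 d it read 9.46, 9.58 and 9.45 in ligated livers, against 10.83, 10.89 and 10.82 in sham livers. The groups lay far apart, and the arrays of each group close together. The log2 difference was -1.35 (SE 0.11, adjusted p = 1.2e-07), or 2.55-fold lower. At 48 h the ligated livers read 10.14, 9.94 and 9.91, against 10.90, 10.82 and 11.01 in sham livers, again without overlap (log2 difference -0.92, SE 0.11, adjusted p = 6.28e-05). Against the sham arrays of 28 d, the 48 h difference was -0.85 (adjusted p = 0.000109) and Mlxipl was still the only member called.

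Acacb encodes the acetyl-CoA carboxylase of the mitochondrial surface, whose malonyl-CoA restrains fatty acid oxidation. At 28 d it read 6.68, 6.81 and 7.29 in ligated livers, against 9.28, 8.47 and 9.62 in sham livers. The highest ligated array lay more than 1 log2 unit below the lowest sham array, and the difference was -2.20 (SE 0.35, adjusted p = 0.000142), or 4.58-fold lower. Its cytosolic counterpart Acaca, which supplies malonyl-CoA for synthesis, read 9.48, 10.05 and 9.93 in ligated livers, against 9.99, 9.77 and 9.82 in sham livers. The Acaca groups overlapped, with a difference of -0.04 (95% interval -0.50 to 0.41, adjusted p = 0.921). At 48 h Acacb read 9.04, 8.93 and 7.92 in ligated livers, against 9.34, 9.23 and 9.50 in sham livers, without overlap but not called (difference -0.72, adjusted p = 0.219, and -0.49 against the sham arrays of 28 d).

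Me1 encodes cytosolic malic enzyme, a source of NADPH for fatty acid synthesis. It read 8.70, 8.93 and 9.61 in livers ligated for 28 d, against 10.84, 10.32 and 10.78 in sham livers, and the groups did not overlap (difference -1.57, SE 0.27, adjusted p = 0.000286). Thrsp encodes Spot 14, a small protein that responds to thyroid hormone and carbohydrate and promotes lipogenesis. It read 7.24, 9.84 and 8.91 in livers ligated for 28 d, against 10.64, 9.97 and 10.66 in sham livers (difference -1.76, SE 0.61, adjusted p = 0.0419). Its ligated arrays were spread over more than 2 log2 units, and without ligated replicate 1 the Thrsp call was lost (difference -1.05, adjusted p = 0.222), which left 3 members called. At 48 h Thrsp read 9.86, 9.45 and 8.78 in ligated livers, against 10.75, 10.54 and 10.75 in sham livers. These groups did not overlap, and Thrsp was called in a fit to the groups compared (adjusted p = 0.0077) and with array weights (-1.24, adjusted p = 0.0446). Against the sham arrays of 28 d its difference was -1.06 (adjusted p = 0.313).

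The other enzymes of palmitate and triglyceride synthesis were not called after ligation at either time. Fasn (fatty acid synthase) differed by -0.36 at 28 d and 0.43 at 48 h, Acly (ATP citrate lyase) by -0.79 and 0.28, Gpam (the mitochondrial glycerol-3-phosphate acyltransferase that begins glycerolipid assembly) by -0.28 and 0.20, and Scd1 (stearoyl-CoA desaturase) by -0.13 and 0.04. Srebf1 itself differed by -0.22 at 28 d (adjusted p = 0.555) and 0.39 at 48 h (adjusted p = 0.352). Against the sham arrays of 28 d the 48 h difference of Srebf1 turned to -0.10 and that of Acaca, 0.01 against the sham arrays of 48 h, to -0.06, while Fasn stood at 0.40, Acly at 0.14, Gpam at 0.11, Scd1 at 0.07 and Me1 at -0.19, none of them called. At 28 d all 10 differences were below 0, and without ligated replicate 1, the lowest array of its group for 9 of the 10 genes, 8 were. Centring each array on its median shifted the median of all symbols to -0.23 at 28 d and -0.20 at 48 h. With that scaling Acly was called as well at 28 d (difference -0.99, adjusted p = 0.0418), and the 48 h differences of Acaca and Scd1 changed sign to -0.16 and -0.13.

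The test of the change in the ligation effect between 28 d and 48 h called 0 members with limma, against 1.3% of all symbols, although 3 (Me1, Acacb and Mlxipl) had an unadjusted p under 0.05. Ligated control livers compared directly between the times had Acacb (difference -1.70, adjusted p = 0.00482), Me1 (-1.38, adjusted p = 0.00353) and Mlxipl (-0.50, adjusted p = 0.00881) lower at 28 d, against 5.31% of all symbols called lower. Of the symbols at or above the median brightness, 20.2% were called there in either direction. Sham livers at 28 d and 48 h differed in 0 members by limma, 0 of them at an unadjusted p under 0.05, with 0.133% of all symbols called. Of the surrounding pathway genes, Pparg (0.73) was called higher in sham liver at 28 d.

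**Figure D1:**
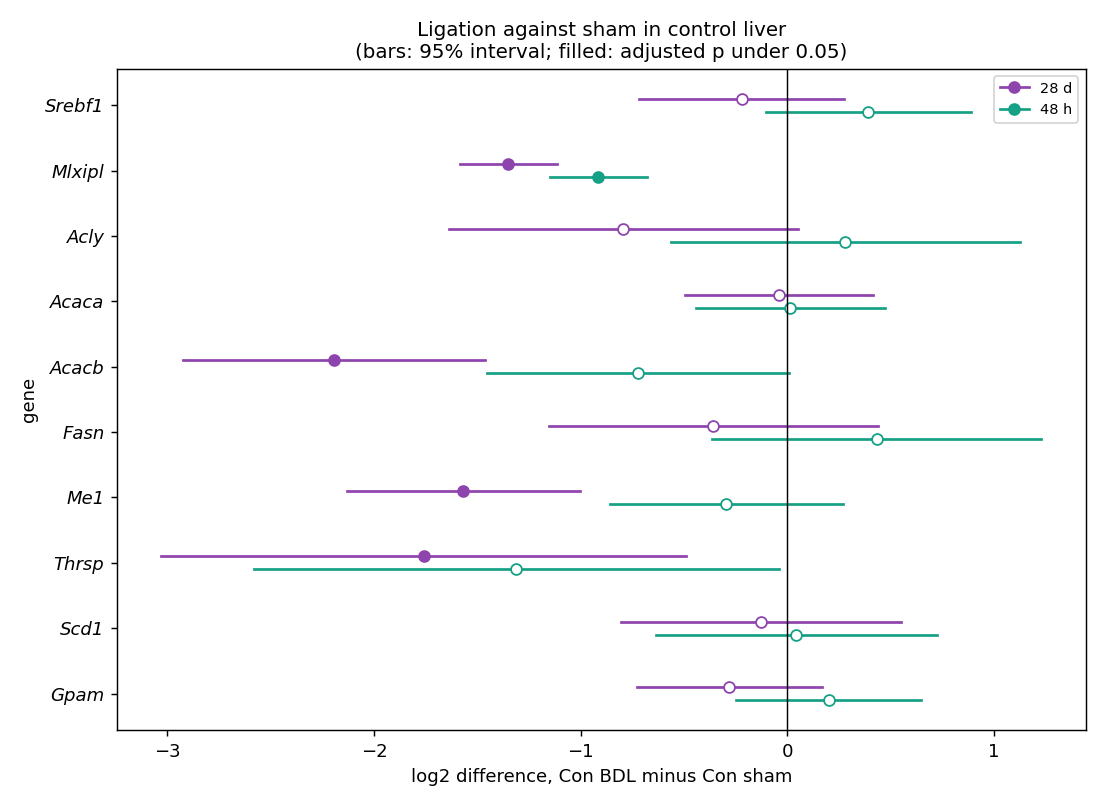
Log2 difference, ligated minus sham control liver, for each of the 10 genes at 28 d and at 48 h, with 95% intervals and filled points for an adjusted p under 0.05. Mlxipl was called at each time, and Acacb, Me1 and Thrsp at 28 d, with Acacb at -2.20 the furthest from 0.

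The pathway around the members was read from 5 lists holding 44 measured genes, for precursor supply, chain modification, glycerolipid assembly, regulators, and lipid droplets and export. After 28 d of ligation 12 of the 44 fell and 4 rose, where 11.5% of all symbols were called lower and 11.7% higher. The fallers with the largest change were Pklr (liver pyruvate kinase, -1.64), Hsd17b12 (a reductase of fatty acid elongation, -1.04), Khk (ketohexokinase, -0.89) and Mid1ip1 (the partner of Spot 14, -0.88). The risers were Scd2 (a desaturase, 1.92), Gpat3 (a microsomal acyltransferase, 1.48), Pparg (a nuclear receptor of fat storage, 1.10) and Lpin2 (a phosphatidate phosphatase, 0.73). At 48 h 6 fell and 7 rose, where 3.83% of all symbols were called lower and 5.61% higher, with Lpin1 (a phosphatidate phosphatase and coactivator) at -2.51, Pklr at -1.32, Plin5 and Plin4 (lipid droplet coat proteins) at -1.15 and -1.14, and Scd2 at 1.77, Gpat3 at 1.56, Pnpla3 (a lipid droplet acylhydrolase) at 1.10 and Pparg at 0.96. Against the sham arrays of 28 d, 5 fell and 4 rose at 48 h, where 11.9% of all symbols were called in either direction. Of the genes just named only Lpin1 (-1.89), Pklr (-1.10) and Gpat3 (1.47) were called against those arrays. Scd2 then stood at 1.20, Pnpla3 at 0.91, Plin4 at -0.53, Plin5 at -0.39 and Pparg at 0.22. Lpin1, Plin4 and Lpin2 were the list members whose ligation effect changed between the times, each higher at 28 d (2.22, 1.87 and 1.33). Compared directly between the times, with no sham arrays, ligated control livers had 4 list genes higher at 28 d (Lpin1 at 1.60, Plin4 at 1.26, Lpin2 at 0.91 and Pparg at 0.87) and 7 lower, led by Pnpla3 (-1.09), Hsd17b12 (-0.86), Elovl5 (a fatty acid elongase, -0.76) and Plin2 (a lipid droplet coat protein, -0.70). Of all 18820 symbols 962 were called higher and 1000 lower there. Bile duct markers (5 of 6 measured) averaged between 5.59 and 7.91 in livers ligated for 28 d, against 4.99 to 5.68 in sham livers, and 1 of the 5 (Krt7) was called higher. Macrophage markers (6 of 6 measured) averaged 9.24 to 9.92, against 8.78 to 9.16 in sham livers, with 3 called higher, and stellate cell and myofibroblast markers (6 of 6) 6.91 to 9.50, against 7.41 to 7.62, with 1 (Col1a1) called higher. Hepatocyte markers (6 of 8 measured) averaged between 12.73 and 12.91, against 12.85 and 12.90, with 1 (Ttr) called lower. At 48 h proliferation markers (3 of 4 measured) averaged 6.29 to 7.12 in ligated livers, against 5.12 to 5.79 in sham livers, with 2 called higher. Of the bile duct markers 2 were called higher at 48 h (5.86 to 6.65 on average, against 4.95 to 5.17) and of the macrophage markers 1 (9.39 to 9.55, against 9.20 to 9.36). Against the sham arrays of 28 d, 1 bile duct marker (Sox9), 3 macrophage markers and 3 proliferation markers were called higher at 48 h. In the adipocyte list Car3, which hepatocytes also express, fell by 5.26 on the log2 scale. The part of these shifts in the member differences was not tested.

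The second comparison asked what loss of Jnk1 in every cell did in the ligated liver. At 48 h, 6 of the 10 genes were lower in JNK1-/- than in control liver (Acacb, Scd1, Me1, Srebf1, Gpam and Mlxipl), none was higher, and 2.3% of all symbols were called in either direction and 1.11% lower. The arrays of 8 of the 10 did not overlap, all below control, against 10.6% of all symbols. All 10 differences were negative and had an unadjusted p under 0.05, and their median was -1.09, against 0.0019 for all symbols. With any single array left out all 10 differences stayed negative, but the count of calls did not hold. The members varied together between arrays, so a sign shared by all 10, here or in later comparisons, is not 10 separate results.

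Srebf1 encodes SREBP-1c and SREBP-1a, the factors that raise transcription of most lipogenic enzymes. At 48 h it read 7.86, 8.08 and 8.04 in JNK1-/- livers, against 9.47, 9.10 and 8.30 in control livers. The 3 mutant arrays lay close together below the lowest control array (difference -0.96, SE 0.24, adjusted p = 0.0356). Mlxipl read 9.42, 9.26 and 9.72 in JNK1-/- livers, against 10.14, 9.94 and 9.91 in control livers, again without overlap (difference -0.53, SE 0.11, adjusted p = 0.0169). When arrays were centred on their median, the calls of Srebf1 (-0.88, adjusted p = 0.0689) and Mlxipl (-0.45, adjusted p = 0.0792) were lost.

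Among the enzymes, Acacb read 7.04, 7.29 and 7.23 in JNK1-/- livers at 48 h, against 9.04, 8.93 and 7.92 in control livers. The mutant arrays were close together and below every control array (difference -1.45, SE 0.35, adjusted p = 0.0327, 2.73-fold lower). Me1 read 8.85, 9.60 and 9.59 in JNK1-/- livers, against 10.43, 10.47 and 10.46 in control livers (difference -1.11, SE 0.27, adjusted p = 0.0333). Its control arrays were nearly equal and the mutant arrays all lower. Gpam read 9.56, 10.11 and 9.75 in JNK1-/- livers, against 10.78, 10.95 and 10.27 in control livers (difference -0.86, SE 0.21, adjusted p = 0.0362). Scd1 read 10.48, 12.11 and 12.64 in JNK1-/- livers, against 13.15, 13.17 and 12.96 in control livers (difference -1.35, SE 0.33, adjusted p = 0.0316). The mutant Scd1 arrays were spread over more than 2 log2 units, while the control arrays stood together near the top of the scale.

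The remaining 4 were lower without a call. Thrsp read 5.91, 7.73 and 7.86 in JNK1-/- livers, against 9.86, 9.45 and 8.78 in control livers, which was the largest difference of the 10 but not called (-2.20, SE 0.61, adjusted p = 0.0614). Fasn read 8.97, 10.91 and 10.75 in JNK1-/- livers, against 11.57, 11.98 and 11.23 in control livers (-1.38, SE 0.38, adjusted p = 0.0607). In each of these the groups did not overlap and the first mutant array was far below the others. Acly read 8.55, 10.07 and 9.93 in JNK1-/- livers, against 10.85, 10.91 and 9.99 in control livers (-1.07, adjusted p = 0.19). Acaca read 8.55, 9.70 and 9.47 in JNK1-/- livers, against 9.89, 9.98 and 9.53 in control livers (-0.56, adjusted p = 0.209). For Acly and Acaca the groups overlapped.

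JNK1-/- 48 h replicate 1 was the lowest array of its group for 9 of the 10 genes, and Mlxipl was the exception. Without it 0 members were called by limma, although 8 had an unadjusted p under 0.05, with 234 of 18820 symbols called, against 433 with it. The differences without it were -1.57 for Thrsp, -1.37 for Acacb, -0.90 for Srebf1, -0.86 for Me1, -0.76 for Fasn, -0.74 for Gpam, -0.72 for Scd1, -0.58 for Acly, -0.51 for Mlxipl and -0.21 for Acaca. On the log2 scale the differences of Mlxipl, Srebf1 and Acacb moved least. Leaving out control 48 h replicate 1 gave 0 called, replicate 2 gave 1, and replicate 3, itself the lowest control array for 9 of the 10 genes, gave 4. A fit to the arrays of these groups alone called 0 members (9 at an unadjusted p under 0.05), with 121 of all symbols called.

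Of the 44 surrounding pathway genes, 3 were higher and 1 lower in JNK1-/- liver at 48 h, where 2.3% of all symbols were called in either direction. Lpin1 (1.15), Plin4 (1.14) and Agpat3 (an acyltransferase of glycerolipid assembly, 0.42) were higher and Mid1ip1 (-1.14) lower. Every one of the 7 measured genes of precursor supply and the 7 of chain modification had a difference below 0, with medians of -0.35 and -0.39, but none of them was called. Hepatocyte markers averaged 12.928 to 12.952 in JNK1-/- livers and 12.809 to 12.815 in control livers at 48 h. Several stood near the top of the scale on all arrays (Alb 13.24 to 13.44, Apoa1 13.13 to 13.34), and the part of hepatocyte content was not tested. Proliferation markers averaged 5.19 to 6.59 in JNK1-/- livers and 6.29 to 7.12 in control livers, and their part in the result was not tested. The adipocyte list (5 of 6 measured) averaged 4.65 to 5.11 in JNK1-/- livers and 5.41 to 5.65 in control livers. Its single call was Car3 (-3.76, adjusted p = 0.00598), a carbonic anhydrase gene that hepatocytes also express.

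At 28 d the comparison of JNK1-/- with control liver called 0 members by limma, with 4 at an unadjusted p under 0.05 and 0.627% of all symbols called. All 10 differences were positive, with a median of 0.59 against -0.0056 for all symbols. The shared sign depended on single arrays, as 1 difference was below 0 without JNK1-/- 28 d replicate 1. The arrays of 7 genes did not overlap, all above control, against 7.25% of all symbols. Srebf1 came closest to a call, at 9.96, 9.94 and 9.26 in JNK1-/- livers, against 8.64, 9.10 and 8.75 in control livers (difference 0.89, SE 0.24, adjusted p = 0.106). Gpam read 11.14, 10.68 and 10.62 in JNK1-/- livers, against 9.95, 10.46 and 10.42 in control livers (0.54, adjusted p = 0.297). Acaca read 10.54, 10.54 and 10.21 in JNK1-/- livers, against 9.48, 10.05 and 9.93 in control livers (0.61, adjusted p = 0.241). Control 28 d replicate 1 was the lowest of its group for 9 of the 10 genes, and without it the differences of Scd1 (0.08), Thrsp (0.29), Acly (0.30), Fasn (0.41) and Me1 (-0.02) shrank, while Srebf1 stayed at 0.79. None of the 44 surrounding pathway genes was called.

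**Figure D2:**
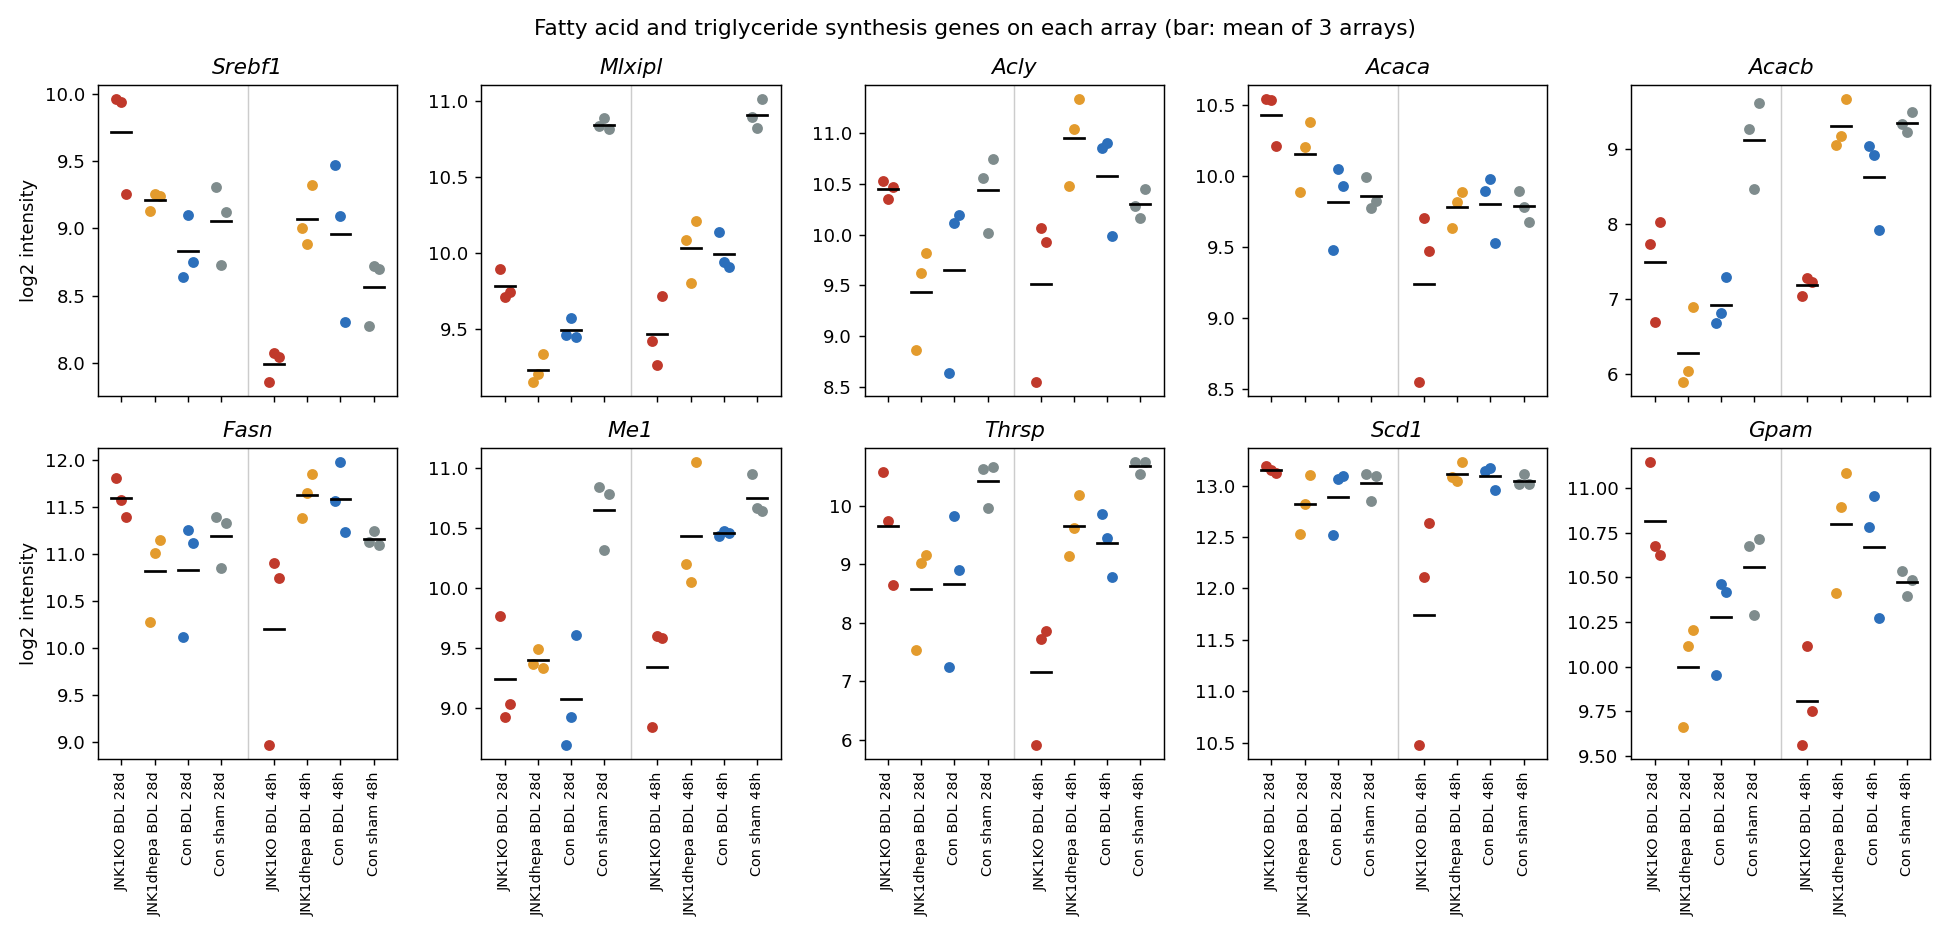
Log2 intensity of each of the 10 genes on each array, in a panel per gene, with a bar at the mean of 3 arrays and the 28 d groups left of the 48 h groups. In JNK1-/- liver at 48 h most genes lie below every other group of that time, while at 28 d the same genotype lies at or above the ligated controls; Mlxipl shows sham liver well above all ligated groups.

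The change of the JNK1-/- difference between the times was tested directly, as the difference at 28 d minus the difference at 48 h. It was positive for all 10 genes, with a median of 1.73 against -0.014 for all symbols, and 3 were called, against 0.744% of all symbols called in either direction and 0.414% called higher. These were Srebf1 (1.85, SE 0.34, adjusted p = 0.0189), Mlxipl (0.82, SE 0.16, adjusted p = 0.0226) and Gpam (1.40, SE 0.30, adjusted p = 0.0385). Of the mutant differences behind these changes, Srebf1 stood at 0.89 at 28 d and -0.96 at 48 h, Mlxipl at 0.29 and -0.53, and Gpam at 0.54 and -0.86. Thrsp had the largest change (3.19, SE 0.86, adjusted p = 0.0841) and Fasn the next (2.15, SE 0.54, adjusted p = 0.0662), and neither was called. Without JNK1-/- 48 h replicate 1, and likewise without control 28 d replicate 1, Srebf1 alone was called (1.78, adjusted p = 0.0484, and 1.75, adjusted p = 0.0458). Leaving out JNK1-/- 28 d replicate 1, control 48 h replicate 1 or control 48 h replicate 2 gave 0 called by limma, with all 10 at an unadjusted p under 0.05 each time. Mid1ip1 (1.77, adjusted p = 0.0404) was the only 1 of the 44 surrounding genes called.

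Within JNK1-/- liver, 5 of the 10 genes were higher at 28 d than at 48 h and none was lower, against 2.84% of all symbols called and 1.94% called higher. Srebf1 rose by 1.72 (SE 0.24, adjusted p = 0.000486), or 3.31-fold, and was called under each of the 15 alternatives tried. Acaca rose by 1.19 (adjusted p = 0.00541), Gpam by 1.01 (adjusted p = 0.0144), Scd1 by 1.41 (adjusted p = 0.0234) and Thrsp by 2.49 (adjusted p = 0.0313). Without JNK1-/- 48 h replicate 1 the Scd1 difference was 0.78 and the Thrsp call was lost (1.86, adjusted p = 0.104). Leaving out JNK1-/- 28 d replicate 1 or 2 gave 2 and 3 called. Acacb, Me1 and Mlxipl, the genes lower at 28 d than at 48 h in ligated controls, differed in JNK1-/- liver by 0.31, -0.10 and 0.32 without a call. Of the surrounding genes Pparg (1.23), Tkfc (triokinase, 0.75) and Khk (0.67) were higher at 28 d and none was lower.

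The third comparison asked whether loss of Jnk1 in hepatocytes alone had the same effect. In JNK1Δhepa against control liver 0 members were called by limma at 48 h, 0 had an unadjusted p under 0.05, and 0% of all symbols were called. Srebf1 read 9.00, 8.88 and 9.32 in JNK1Δhepa livers at 48 h, against 9.47, 9.10 and 8.30 in control livers (difference 0.11, 95% interval -0.39 to 0.61). Fasn read 11.39, 11.65 and 11.85 in JNK1Δhepa livers, against 11.57, 11.98 and 11.23 in control livers (0.04, 95% interval -0.76 to 0.83). Mlxipl differed by 0.04 (95% interval -0.20 to 0.27). The largest difference was that of Acacb, at 9.06, 9.18 and 9.67 in JNK1Δhepa livers, just above the control arrays at 9.04, 8.93 and 7.92 (0.67, adjusted p = 0.9995). The intervals of the other members reached up to 1.56 in size, so changes of that order cannot be told from none.

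At 28 d 0 members were called in JNK1Δhepa against control liver by limma, 1 (Mlxipl) had an unadjusted p under 0.05, and 0.228% of all symbols were called. With the replicate number as a block over all arrays, 0 members and 11 symbols (0.0584%) were called. The array correlations allow pairing by number in this comparison only, so that block also spanned groups whose numbers do not pair. Counts from a block fitted to the compared groups only are not given here. Mlxipl read 9.15, 9.20 and 9.34 in JNK1Δhepa livers, against 9.46, 9.58 and 9.45 in control livers, without overlap (difference -0.27, SE 0.11, adjusted p = 0.275, and 0.242 with the block over all arrays). Without the JNK1Δhepa array whose Mapk8 stood at the control level the difference was -0.23 (adjusted p = 0.495), and 0 members were called. Neither time gave a call among the 44 surrounding genes, and the change of the JNK1Δhepa difference between the times called 0 members (limma, 1 at an unadjusted p under 0.05, 0% of all symbols called).

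**Figure D3:**
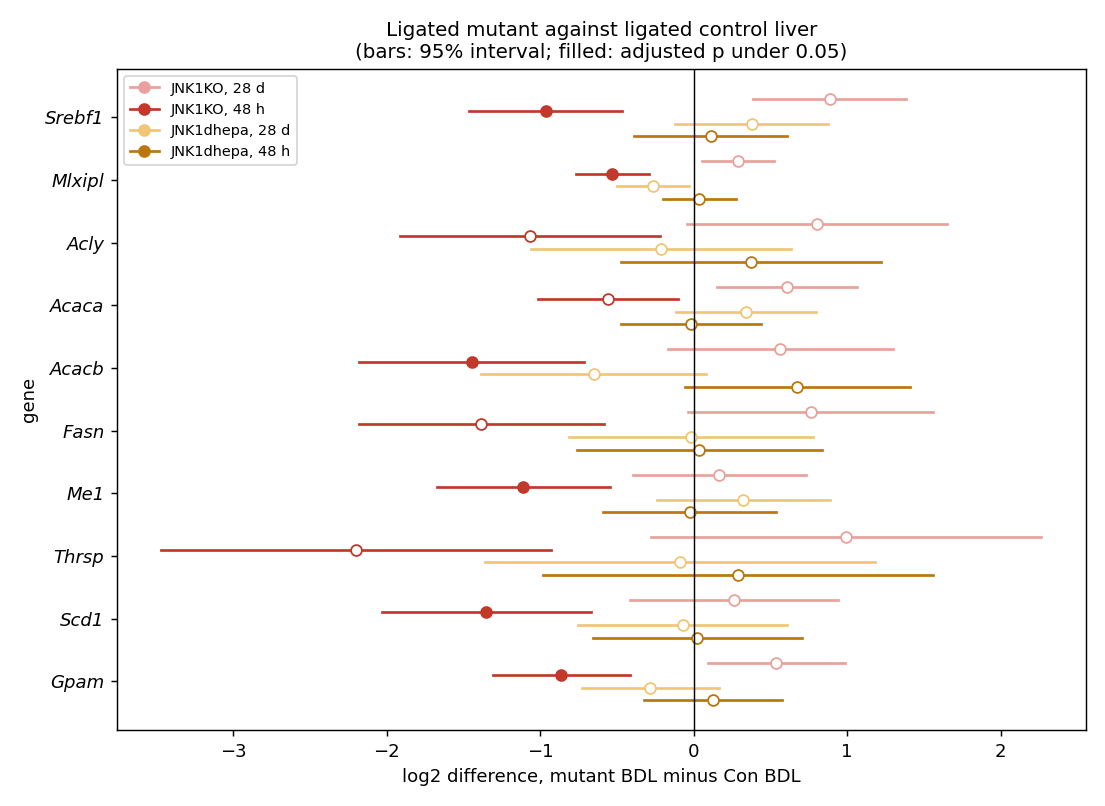
Log2 difference, ligated mutant minus ligated control liver, for each of the 10 genes, with 95% intervals and filled points for an adjusted p under 0.05. JNK1-/- intervals at 48 h lie below 0 for all 10 genes. At 28 d the JNK1-/- differences lie above 0 but none is called, and the intervals of Acacb, Fasn, Scd1, Me1, Acly and Thrsp cross 0. The JNK1Δhepa intervals cross 0 for all but Mlxipl at 28 d.

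The mutants share their control arrays in the comparisons above, so they were also set against each other directly. At 48 h 7 genes were lower in JNK1-/- than in JNK1Δhepa liver and none was higher, against 2.44% of all symbols called and 1.24% called lower. Acacb read 7.04, 7.29 and 7.23 in JNK1-/- livers, against 9.06, 9.18 and 9.67 in JNK1Δhepa livers, a gap of more than 1 log2 unit between the nearest arrays (difference -2.12, SE 0.35, adjusted p = 0.00261, 4.35-fold lower). The Acacb call was kept under all 15 alternatives tried, with differences between -2.24 and -1.94. Mlxipl (-0.57, adjusted p = 0.0105), Gpam (-0.99, adjusted p = 0.0185), Srebf1 (-1.08, adjusted p = 0.0209), Scd1 (-1.38, adjusted p = 0.0291), Thrsp (-2.48, adjusted p = 0.0336) and Me1 (-1.08, adjusted p = 0.0369) were also called. Fasn (-1.42, adjusted p = 0.0527), Acly (-1.44, adjusted p = 0.0647) and Acaca (-0.54, adjusted p = 0.221) were not. Without JNK1-/- replicate 1 the 3 genes called were Acacb (-2.05), Scd1 (-0.74) and Mlxipl (-0.54). Leaving out JNK1Δhepa replicate 1, 2 or 3 gave 3, 4 and 1 called. Of the surrounding genes Mid1ip1 (-1.06) and Elovl5 (-0.92) were lower, and Lpin2 (0.95) and Gpat3 (0.64) higher, in JNK1-/- liver.

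At 28 d the direct comparison called Mlxipl, at 9.90, 9.71 and 9.74 in JNK1-/- livers, against 9.15, 9.20 and 9.34 in JNK1Δhepa livers (difference 0.55, SE 0.11, adjusted p = 0.0222), with 0.962% of all symbols called. The groups did not overlap for 6 genes, all higher in JNK1-/- liver, against 13.2% of all symbols. Gpam differed by 0.82 (adjusted p = 0.0668) and Acacb by 1.22 (adjusted p = 0.089) without a call. The Mlxipl call was lost without JNK1Δhepa 28 d replicate 1, the array at the control level of Mapk8 (0.52, adjusted p = 0.138), and with centred arrays (0.44, adjusted p = 0.0929). Within JNK1Δhepa liver 5 genes were lower at 28 d than at 48 h, against 18% of all symbols called and 8.67% called lower. Of the symbols at or above the median brightness, 33.3% were called in either direction. Acacb read 5.90, 6.04 and 6.90 at 28 d, against 9.06, 9.18 and 9.67 at 48 h (-3.03, SE 0.35, adjusted p = 2.79e-05, 8.16-fold lower), the largest called difference of any member. Mlxipl (-0.80), Me1 (-1.03), Acly (-1.52) and Gpam (-0.80) were the other members called. Without JNK1Δhepa 28 d replicate 1, Acly (-1.23, adjusted p = 0.083) and Gpam (-0.64, adjusted p = 0.0868) were no longer called, and without JNK1Δhepa 48 h replicate 3, 2 members were. All 3 proliferation markers were lower at 28 d than at 48 h (4.61 to 4.90 on average, against 6.86 to 7.28), as were 1 macrophage marker (Cd5l), 1 bile duct marker (Sox9) and Car3, and 1 hepatocyte marker (Tat) was higher. Their part in the member differences was not tested. Of the 44 surrounding genes 10 were lower at 28 d, led by Acss2 (acetyl-CoA synthetase, -1.39), Fads2 (a desaturase, -1.13), Elovl5 (-1.05) and Mid1ip1 (-1.01), and 7 higher, led by Ppargc1b (a coactivator, 1.76), Lpin1 (1.61), Lpin2 (1.34) and Pparg (1.16). Of all 18820 symbols 1631 were called lower and 1751 higher.

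In every group except sham liver at 48 h, the members varied more between arrays than the median gene did. Their median SD was 0.52 in JNK1-/- liver at 48 h, where that of all symbols was 0.14, and 0.32 in control liver ligated for 28 d, where that of all symbols was 0.19. In sham livers it was 0.29 at 28 d and 0.11 at 48 h. In 5 of the 8 groups 1 array was the lowest for 9 of the 10 genes, and JNK1Δhepa 48 h replicate 3 was the highest of its group for all 10. The genes thus stood high or low together on an array.

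**Figure D4:**
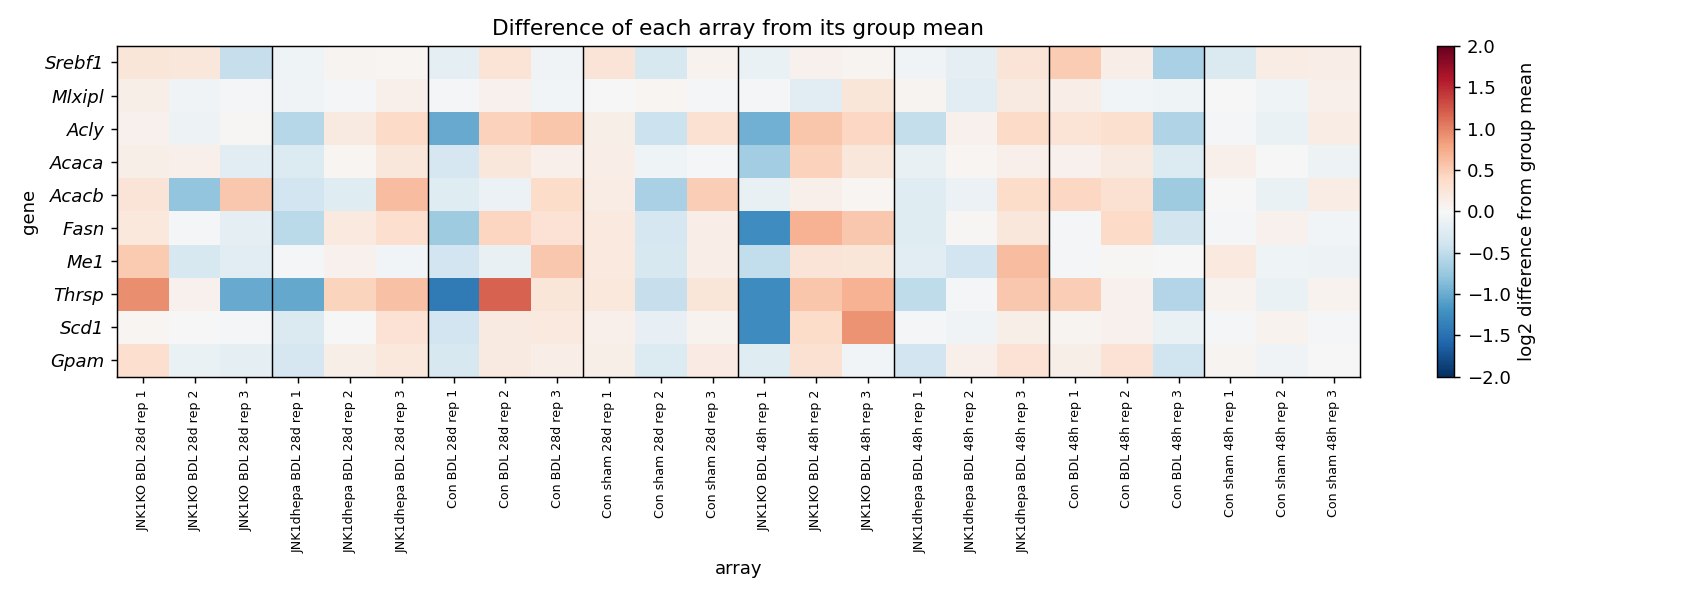
Log2 difference of each array from the mean of its group, for each gene (down) and array (across). Whole columns share a colour, with JNK1-/- 48 h replicate 1 and control BDL 28 d replicate 1 low for 9 of 10 genes each.

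This joint variation was described by correlation, which has no test here because the arrays share groups. After removal of group means, Acaca and Fasn correlated at 0.96 over the 24 arrays, Fasn and Acly at 0.92, Fasn and Scd1 at 0.895 and Thrsp and Fasn at 0.865. The median over the 45 pairs was 0.55, and Mlxipl was the least tied to the others, at 0.14 with Gpam and 0.17 with Fasn. Across the 24 arrays as they stood, a different grouping appeared. Acacb, Me1 and Mlxipl went together (0.86 for Acacb and Me1, 0.84 for Acacb and Mlxipl, 0.80 for Mlxipl and Me1), and all were near 0 with Srebf1 (0.02, -0.001 and 0.01) and Acaca (-0.07, 0.008 and -0.02). These 3 are the genes lower in ligated control liver at 28 d than at 48 h, and correlations over the arrays as they stood contain that same difference. After removal of group means the 3 were looser (0.47 for Acacb and Me1, 0.30 for Acacb and Mlxipl, 0.31 for Mlxipl and Me1). Srebf1 and Acaca correlated with each other at 0.81 over the arrays as they stood and at 0.51 after that removal.

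**Figure D5:**
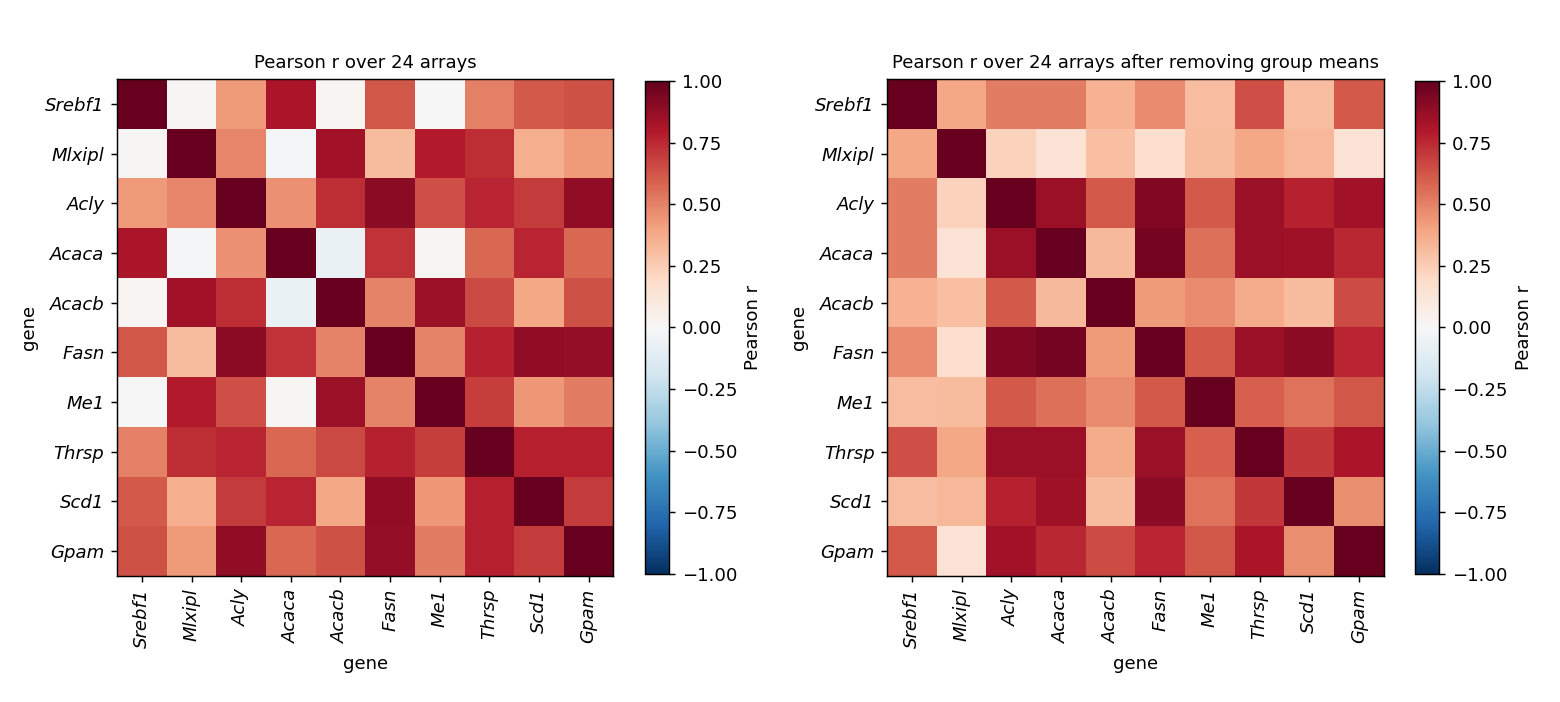
Pearson correlation between the 10 genes over 24 arrays, with values as they stand (left) and after removal of group means (right). On the right the enzymes Acly, Acaca, Fasn and Scd1 form a block with Thrsp, up to 0.96, and the Mlxipl row is pale; on the left Acacb, Me1 and Mlxipl stand together and apart from Srebf1 and Acaca.

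Outside the set, the genes whose pattern over the 24 arrays was most like a member's were named by a fixed rule of 2 per member. Fasn was most like Insig1 (r = 0.93) and Dhcr7 (0.92), Acly most like Acss2 (0.97) and Chrna4 (0.96), and Gpam most like Chrna4 (0.89) and Mid1ip1 (0.88). Mlxipl was most like Lifr (0.95) and Acadsb (0.94), Acacb like Aspdh (0.925) and Slc25a45 (0.92), and Me1 like Mrpl1 (0.935) and Aadac (0.92). Thrsp was most like Acaa1b (0.93) and Gcat (0.91), and Scd1 like Slc39a4 (0.90) and Gpx1 (0.90). Srebf1 and Acaca had the loosest partners, Srebf1 with Pik3c2b (0.83) and Pcyt1a (0.83), and Acaca with Slc22a18 (0.88) and Pcyt1a (0.84). After removal of group means some pairs were much looser, such as Mlxipl with Lifr (0.28) and Acadsb (0.49), Srebf1 with Pik3c2b (0.54) and Acacb with Slc25a45 (0.55). Others stayed close, such as Acly with Acss2 (0.95) and Fasn with Dhcr7 (0.96).

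The order of the group means differed between the members, although several top ranks were separated by little. For Srebf1, Acaca, Scd1 and Gpam, JNK1-/- liver held the highest group mean at 28 d and the lowest at 48 h, 9.72 against 7.99 for Srebf1 and 13.15 against 11.74 for Scd1. For Mlxipl, Me1, Acacb and Thrsp the highest mean was that of sham liver at 48 h, followed for Mlxipl, Me1 and Thrsp by sham liver at 28 d. JNK1Δhepa liver at 48 h stood close behind the highest mean for Gpam (10.80 against 10.82), Scd1 (13.12 against 13.15) and Acacb (9.31 against 9.36). For Fasn it was itself the highest, at 11.63, against 11.60 in JNK1-/- liver at 28 d. These gaps were smaller than the spread of most of the groups. Thrsp spanned the widest range of group means (10.68 to 7.17) and Gpam the narrowest (10.82 to 9.81). Between these extremes the Scd1 means of the other 6 groups lay between 12.82 and 13.12, and neighbours in that order did not differ beyond the spread of their arrays.

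Acaca and Me1 each had a further probe set. The other Acaca set correlated at 0.94 with the one used and the other Me1 set at 0.996, and with them in place no member call changed. Probe sets on this array are numbered along chromosomes for 94.7% of 21185 sets, in that their nearest numbers share their chromosome. The Acaca set used is numbered among sets of chromosome 12 (17 of the 20 nearest), although Acaca lies on chromosome 11, and the Me1 set among those of chromosome 13 (15 of 20), although Me1 lies on chromosome 9. The other sets of these genes are numbered among those of their own chromosome.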

How the data were processed

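The deposited file held log2 intensities for 35556 probe sets on 24 arrays, which the authors made with RMA, per the submitters' processing notes, version and settings not given in the sources used here. The 21218 probe sets with 1 gene symbol were kept (1881 had several and 12457 none), and 1 set, the one with the highest mean intensity, was used for each of 18820 symbols. Gene numbers matched 21185 of these sets to RefSeq genes on GRCm38.p6. Array medians lay between 5.18 and 5.32 and no arrays were identical (correlations 0.961 to 0.997), and the number of arrays limits the precision (median SE 0.13 for a difference and 0.18 for a difference of differences).

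Differences came from limma 3.58.1 in R 4.3.3, with the reader package data.table (1.17.8), in 1 linear model with a mean per group (16 residual and 3.55 prior degrees of freedom). P-values were adjusted by Benjamini and Hochberg over all symbols in each of 15 comparisons, and fits were tested on simulated data. Shares of all symbols called are at the adjusted threshold, also where members are counted at an unadjusted p. The members, the pathway and marker lists and the comparisons were chosen with earlier results of these data known. All 10 members are named; from the 5 pathway lists up to 4 called genes per direction with the largest change are named; 6 of their 50 genes were not measured. Per member the 2 non-member symbols (Gm and Rik symbols left out) with the highest Pearson correlation over all arrays are named. Alternatives were quantile normalization, centring on array medians, array weights, a trended robust fit, a fit to only the groups compared, symbols at or above the median brightness, every probe set, a replicate block, leaving out each array, the sham arrays of 28 d in place of 48 h, and the other probe sets of Acaca and Me1. That last choice, and a block fitted to 2 groups only, were made after seeing the data.

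Replicate numbers were taken from the labels, which do not say what they mark. Deviations of same-numbered arrays from their group means correlated above 0.1 for every pair in 1 comparison, JNK1Δhepa against control at 28 d (0.50, 0.24 and 0.16). The reported values come from the fit without the block. Values with a block over all arrays stand beside them for that comparison. There it changed no member call (0 with the block) but gave 11 called symbols, against 43 without it. That block also spanned groups whose numbers do not pair.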

Additional observations from a re-analysis of the deposited data

Results flagged for a closer look

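For 3 genes the difference between ligated JNK1-/- and ligated control liver was itself different at 28 d and at 48 h, by the limma test of the change. Srebf1 changed by 1.85 (adjusted p = 0.0189), with 3 of 3 JNK1-/- arrays above every control array at 28 d and 3 of 3 below every control array at 48 h. Mlxipl changed by 0.82 (adjusted p = 0.0226) and Gpam by 1.40 (adjusted p = 0.0385), each with the same separation of arrays at each time. Of 21 alternatives Srebf1 was called under 17, Gpam under 14 and Mlxipl under 13. The spread of the members in JNK1-/- liver at 48 h (median SD 0.52) was the largest of the 8 groups, and its part in these changes was not tested.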

How the results depend on the processing

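Of the 35 called member differences, 8 stayed called under every alternative: Mlxipl after ligation at 28 d and at 48 h, Acacb and Me1 after ligation at 28 d, Acacb in JNK1-/- against JNK1Δhepa at 48 h, Srebf1 in JNK1-/- at 28 d against 48 h, and Acacb and Mlxipl in JNK1Δhepa at 28 d against 48 h. No called difference changed sign. The count of members called in JNK1-/- against control at 48 h was 6, and 0 in a fit to only the groups compared (0.643% of all symbols called). That fit also gave 2 in JNK1-/- against JNK1Δhepa at 48 h (7 over all arrays), with 0.813% of all symbols. At 28 d it gave 0 (1), with 0.446%. It gave 0 for the change of the JNK1-/- difference (3), with 0%. For 28 d against 48 h it gave 0 in control liver (3), with 0.191%, and 1 in JNK1-/- liver (5), with 0.521%. For ligation at 48 h it gave 2 (1), with 13.7% of all symbols. Array weights gave 2 for ligation at 48 h, where 18.7% of all symbols were called, a share near 2 of 10. They gave 2 for the change of the ligation effect (0), with 5.58% of all symbols. For JNK1-/- against JNK1Δhepa at 28 d they gave 2, with 5.56%, and for the change of the JNK1-/- difference 7, with 3.26%. Centring gave 0 for JNK1-/- against JNK1Δhepa at 28 d, with 0.871%. Bright symbols alone gave 5 for the change of the JNK1-/- difference, with 2.58% of the 9410 symbols tested. The replicate block gave 5 there too, adding Acacb and Fasn, with 0.85% of all symbols, in a comparison whose numbers do not pair the arrays.

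With 1 array left out the counts ranged from 0 to 4 for JNK1-/- against control at 48 h, 0 to 1 at 28 d, 1 to 8 for JNK1-/- against JNK1Δhepa at 48 h, 0 to 2 at 28 d, 0 to 6 for the change of the JNK1-/- difference and 0 to 1 for that of the ligation effect. For 28 d against 48 h they ranged from 2 to 7 in JNK1-/-, 2 to 5 in JNK1Δhepa and 2 to 3 in control liver, and from 3 to 4 for ligation at 28 d. The share of all symbols called moved as well. It ran from 0.855% to 2.19% for JNK1-/- against control at 48 h and from 17.8% to 23.1% for ligation at 28 d. For the change of the JNK1-/- difference it ran from 0.085% to 3.05%. With 3 arrays a group, adjusted p-values near 0.05 depend on single arrays, and a member not called has not been shown to be equal. The dimmest member, Acacb, lay at the 75.4th percentile of symbol brightness.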

Other observations

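Exocrine pancreas markers (3 of 6 measured) averaged between 4.23 and 6.69 in JNK1Δhepa livers at 48 h, and no higher than 5.24 on any array of the other groups. The mean of that group was 5.09, so the high reading was that of a single array. Single markers reached 8.03 (Ctrb1) and 7.45 (Cpa1), while Prss2 was no higher than 4.58 on any array.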
